A study of Mus musculus with 19 samples.

Results

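Receptors for serotonin, dopamine, noradrenaline and acetylcholine were examined in RNA of dendrites cut from cultured mouse hippocampal neurons. The genes were taken by name alone, as all symbols that begin with Htr or Drd and a digit, or with Chrm, Chrn, Adra or Adrb. Of the 18193 genes with a value on the array, 37 met this rule, and they were represented by 66 probe sets. They comprised 11 metabotropic serotonin receptors, 2 serotonin-gated channel subunits, 4 dopamine receptors, 2 alpha adrenergic receptors, 3 muscarinic receptors and 15 nicotinic receptor subunits. A further 12 genes that the rule takes in RefSeq, among them Htr2a, Drd5 and Chrm2, were not analysed here.

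Balb/c, an inbred mouse strain, was represented by 5 arrays, 2 from pools of 100 dendrites, 1 from a pool of 200 and 2 from pools of 400. It was set against C57BL/6, another inbred strain, with 14 arrays, 4, 5 and 5 from pools of those sizes. All neurons were taken from E18 embryos and grown for 14 days as dispersed primary cultures, with no treatment, and no group carried a transgene. Each pool was gathered over multiple cells with a glass pipette, and its RNA went through several rounds of linear amplification before hybridization, so a pool is a mixture and not a single neuron. The cell type on the labels is pyramidal neuron. Pools are labelled as biological replicates, but their cultures and animals of origin are unnamed, so that the p-values below cover variation among pools and nothing wider. In such pools, fewer dendrites that carry an RNA and less of it per dendrite cannot be told apart, and the study's methods state that thin axons may have been collected along with dendrites.

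Monoamines and acetylcholine reach the hippocampus from cell groups that lie outside it, in the raphe, locus coeruleus, midbrain and septum, and they act there mainly through metabotropic receptors that set how excitable a neuron is and how readily its synapses change. These receptors signal through G proteins. Those coupled to Gs raise cyclic AMP, those coupled to Gi/o lower it and open potassium channels of the GIRK type, and those coupled to Gq/11 activate phospholipase C beta. Nicotinic receptors and the 5-HT3 receptor are instead pentameric cation channels, assembled from neuronal subunits in neurons and from alpha 1, beta 1, delta and epsilon or gamma subunits in skeletal muscle.

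Promoter sequences are shown for 4 of the genes because the results below turn on them. Chrna1, the alpha 1 subunit of the muscle receptor, had the highest signal of all 37, Htr7 and Htr2c had the smallest adjusted p-values of the receptor genes higher and lower in Balb/c, and Chrnb1 is the muscle subunit with the largest decrease. Each run is 300 bases, 250 before and 50 after the RefSeq transcription start in build GRCm38.p6, written 5′ to 3′ on the strand of the gene. Chrna1 lies at chr2:73580289-73580588 on the minus strand, Htr7 at chr19:36057311-36057610 on the minus strand, Htr2c at chrX:146962263-146962562 on the plus strand, and Chrnb1 at chr11:69795888-69796187 on the minus strand. Capitals mark E-boxes (CANNTG, its own reverse complement) and GC boxes (GGGCGG, or CCGCCC on the other strand).
Chrna1: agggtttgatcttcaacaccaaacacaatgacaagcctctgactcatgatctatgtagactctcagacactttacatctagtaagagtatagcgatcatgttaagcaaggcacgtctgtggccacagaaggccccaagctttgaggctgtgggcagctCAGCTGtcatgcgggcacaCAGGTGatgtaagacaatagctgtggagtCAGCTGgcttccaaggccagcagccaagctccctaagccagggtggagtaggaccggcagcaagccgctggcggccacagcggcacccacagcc
Htr7: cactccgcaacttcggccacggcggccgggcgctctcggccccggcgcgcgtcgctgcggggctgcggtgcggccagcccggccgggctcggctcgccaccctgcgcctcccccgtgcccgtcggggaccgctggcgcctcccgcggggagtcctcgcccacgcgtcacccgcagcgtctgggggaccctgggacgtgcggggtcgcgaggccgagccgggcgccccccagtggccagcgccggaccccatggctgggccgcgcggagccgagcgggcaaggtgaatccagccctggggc
Htr2c: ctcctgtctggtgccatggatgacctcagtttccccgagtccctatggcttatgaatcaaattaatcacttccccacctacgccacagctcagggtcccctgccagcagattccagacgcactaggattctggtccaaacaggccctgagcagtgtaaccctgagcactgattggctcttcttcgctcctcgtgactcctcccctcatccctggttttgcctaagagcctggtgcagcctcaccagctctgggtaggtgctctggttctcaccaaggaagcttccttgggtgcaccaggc
Chrnb1: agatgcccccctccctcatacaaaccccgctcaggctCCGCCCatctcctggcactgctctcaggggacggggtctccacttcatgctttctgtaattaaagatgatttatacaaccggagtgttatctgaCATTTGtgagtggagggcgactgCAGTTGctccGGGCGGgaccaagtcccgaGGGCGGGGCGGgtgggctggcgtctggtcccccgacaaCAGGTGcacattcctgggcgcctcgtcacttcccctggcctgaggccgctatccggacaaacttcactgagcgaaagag
The Chrna1 promoter held 3 E-boxes, which began 92, 73 and 44 bases before the start, and 0 GC boxes. That of Chrnb1 held 3 E-boxes, 119, 96 and 29 bases before the start, and 4 GC boxes, 2 of which overlapped each other. An E-box was present in 72.3% of the 32851 mouse promoters of this length and 3 or more in 17.6%, while a GC box was present in 35.7%. The Htr7 and Htr2c promoters had 0 of either, as had 14.1% of all promoters. Htr7 was made up of G and C to 81%, a share that 0.740% of all promoters reached, against 56.3% for Htr2c. Of the 29 receptor genes with a promoter in the table, 18 held an E-box and 13 a GC box. A match is a description of the letters and not evidence of a bound site.

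Values are RMA signals on the log2 scale, in which 1 unit is a doubling, and a gene's value is the median of its probe sets. Because probe sets differ in how strongly they bind, the place of a gene among all genes of an array is given only as a percentile rank, not as an amount of mRNA. As a level of background the 95th percentile of 71 olfactory and vomeronasal receptor genes was taken on each array, which lay between 8.44 and 10.003. Over all genes, 7.73% were above it in more than 9 of the 19 arrays.

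As a group the receptors had ordinary signals. The median receptor gene lay at the 50.3rd percentile of all genes, with a range of 7.83 to 99.5 over the 37, and 19 of them lay above the 50th percentile. Per array, the median over the receptors was between the 44.5th and the 61.0th percentile. It exceeded the median of all genes in 3 of 5 Balb/c arrays and in 5 of 14 C57BL/6 arrays, and it exceeded the median of the olfactory and vomeronasal genes in 19 of 19 arrays. Only 1 of the 37 genes was above background in most arrays, and 30 were above it in 0 arrays. The other 6 genes that passed it in some arrays were Htr7 in 6, Htr3a in 5, Chrna3 in 4, Htr2c in 2 and Chrnb1 and Chrnb3 in 1 each. With the 90th percentile of the olfactory and vomeronasal genes as background, 6 genes passed in most arrays, namely Chrna1, Chrna3, Htr7, Htr3a, Chrnb3 and Htr2c. The shares of all genes that passed this lower level, or were above background in 0 arrays, are not given here. Those counts are therefore no result about the receptors as a group.

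The gene above background in most arrays was Chrna1. Its signal was 12.43 and 11.89 in the Balb/c pools of 100 dendrites, 12.30 in that of 200 and 12.18 and 12.59 in those of 400. In C57BL/6 the lowest array had 11.996, the median was 12.36 and the highest 12.73. The strains overlapped over nearly the whole range, and each of the 19 arrays placed the gene between the 99.3rd and the 99.8th percentile. The difference was -0.08 ± 0.18 (Balb/c minus C57BL/6, standard error) with an adjusted p of 0.743 in limma, and the SD of 0.20 among C57BL/6 arrays was below the median SD of all genes, 0.55.

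The signal of Chrna1 came from a single probe set, 1418852_at, and the genes that its protein assembles with in muscle did not share the level. Chrnd, the delta subunit, lay at the 75.3rd percentile, Chrnb1 at the 53.0th, Chrng, the fetal gamma subunit, at the 44.2nd and Chrne, the adult epsilon subunit, at the 25.4th. Of the partners that cluster the receptor at the endplate, Rapsn, Musk and Agrn lay at the 34.3rd, 55.3rd and 43.5th percentiles. A list of 12 genes of skeletal muscle had its median at the 31.4th percentile and its highest gene, Ckm, the muscle creatine kinase, at the 60.5th. Of these 12, 0 were above background in most arrays, and their mean signal ranged from 6.05 to 6.73 in Balb/c and from 5.87 to 6.68 in C57BL/6.

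**Figure D1:**
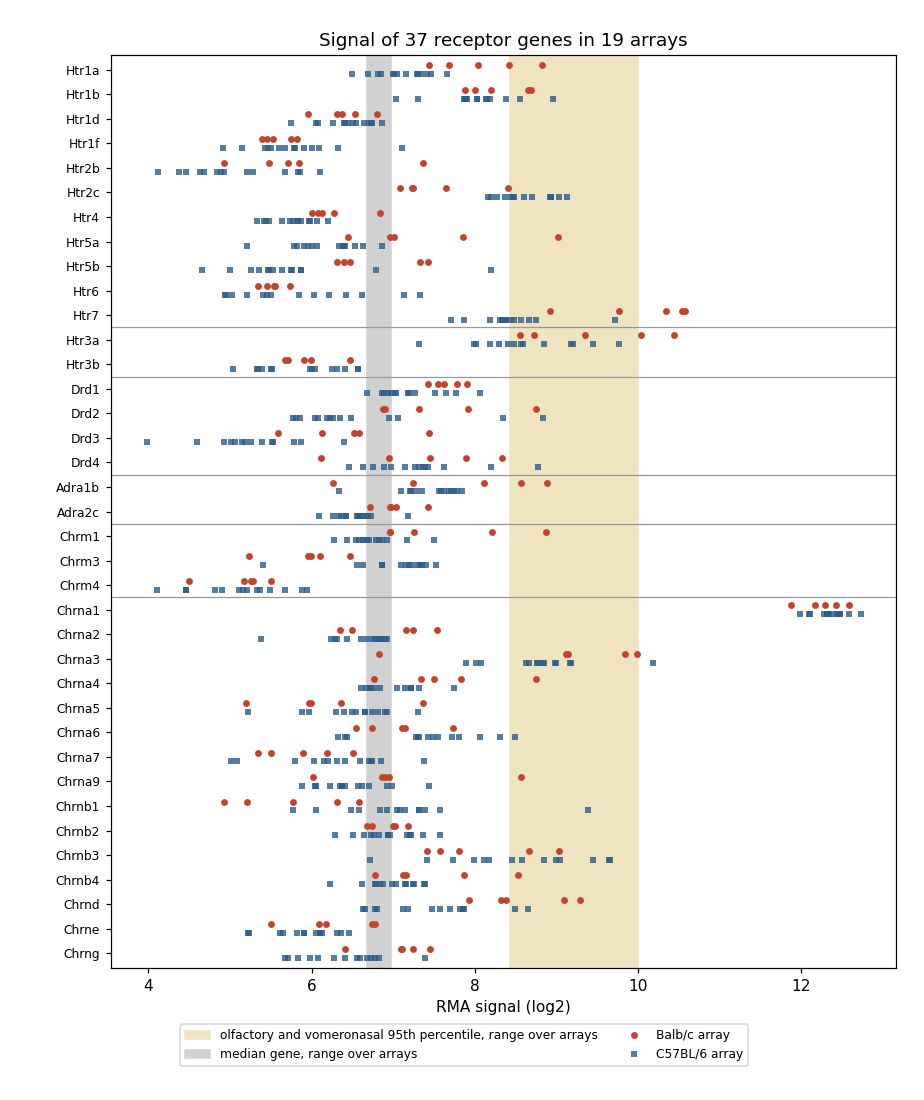
RMA signal (log2, horizontal axis) of the 37 receptor genes, a row each, in 5 Balb/c arrays (circles, upper) and 14 C57BL/6 arrays (squares, lower), with lines between families. The grey band is the range over arrays of the median gene and the sand band that of the background level. Chrna1 stands alone between 11.89 and 12.73, and the other genes lie on both sides of the median gene.

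Among the metabotropic serotonin receptors the median percentile was 35.8, the lowest of the families with more than 2 genes. Htr7, a Gs-coupled receptor that raises the excitability of hippocampal pyramidal cells, was at the 84.7th percentile and Htr2c, a Gq/11-coupled receptor, at the 84.2nd. Htr1b, the Gi/o-coupled receptor best known as a brake on transmitter release at axon terminals, was at the 79.1st. At the other end, Htr2b, known mainly from heart and gut, lay at the 8.56th percentile with a mean of 5.27, and Htr6 and Htr1f lay at the 14.6th and 16.3rd. Of the serotonin-gated channel subunits, Htr3a, which can form a channel by itself, was at the 85.7th percentile and Htr3b, which needs it as a partner, at the 19.9th.

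Dopamine receptors lay between the 14.3rd percentile for Drd3, a Gi/o-coupled receptor, and the 63.9th for Drd1, which is coupled to Gs. Adra1b, coupled to Gq/11, and Adra2c, coupled to Gi/o, were at the 70.3rd and 44.9th percentiles. Of the muscarinic receptors, Chrm3 and Chrm1, both coupled to Gq/11, were at the 54.9th and 50.3rd, and Chrm4, coupled to Gi/o, was at the 7.83rd with a mean of 5.14, the lowest of the 37 genes. Among neuronal nicotinic subunits, Chrna3 had the highest signal at the 88.0th percentile, followed by Chrnb3 at the 83.5th. The subunits of the most common brain receptors were lower, with Chrna4 at the 58.7th, Chrnb2 at the 51.7th and Chrna7 at the 34.3rd. Chrna3 spread widely in Balb/c, with 9.14, 6.82, 9.84, 9.99 and 9.12 in the pools of 100, 100, 200, 400 and 400 dendrites, against a lowest of 7.89, a median of 8.81 and a highest of 10.18 in C57BL/6. Its strain difference of 0.20 ± 0.39 (standard error) did not pass the test, with an adjusted p of 0.723 in limma.

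The level of a gene depended on which probe set was read. Of the 21 receptor genes with more than 1 probe set, 10 had probe sets whose mean signals lay more than 2 log2 units apart, and the median gap was 1.79. The largest, 6.59, belonged to Htr1b. Its probe set 1422288_at had 11.84 in Balb/c and 11.23 in C57BL/6, whereas 1442077_at had 4.73 in Balb/c and 4.83 in C57BL/6, so that the value of the gene stands for neither of them. Drd1 was similar, with 10.11 in Balb/c and 8.82 in C57BL/6 for 1456051_at and 5.21 in Balb/c and 5.62 in C57BL/6 for 1455629_at. With each gene read from its brightest probe set, 4 genes were above background in most arrays, Chrna1 and Htr1b in 19 arrays each and Chrna3 and Htr7 in 17 each. The share of all genes read in this way is not given here, so this count is no result about the receptors as a group. Where on the transcripts these probe sets lie was not analysed here.

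**Figure D2:**
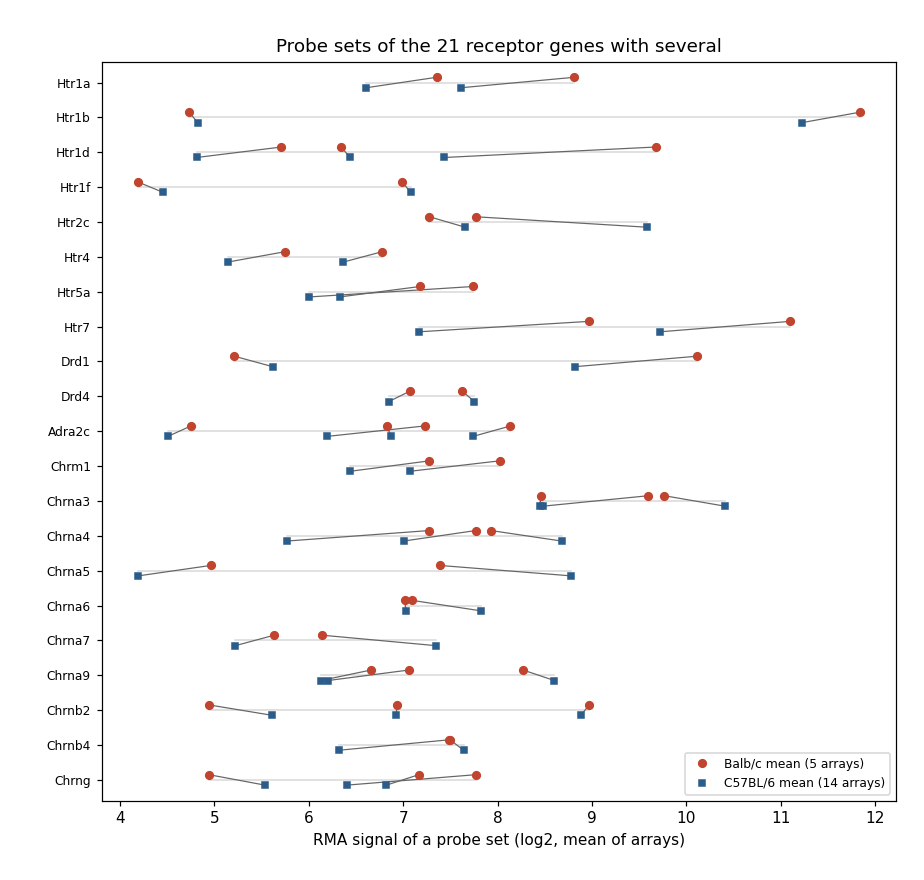
Mean RMA signal (log2, horizontal axis) of each probe set of the 21 receptor genes that have more than 1, in Balb/c (circles, 5 arrays) and C57BL/6 (squares, 14 arrays), with a line joining the strains of a probe set. The probe sets of Htr1b lie 6.59 apart. Only 8 of the 21 genes have probe sets whose differences share a sign. In the rest, Chrna3, Chrna4, Chrna5 and Chrna7 among them, joining lines lean in opposite directions.

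Before the strains are compared, properties of the arrays that go with strain have to be stated. Each array was placed on the axis between the strain means of the other arrays over all genes, at 0 for C57BL/6 and 1 for Balb/c. The Balb/c array of 200 dendrites lay at 0.31, C57BL/6 200 replicate 1 at 0.70 and C57BL/6 400 replicate 1 at 0.46, whereas the other Balb/c arrays lay at 0.79 or higher and the other C57BL/6 arrays at 0.18 or lower. In the table of values, all 5 Balb/c columns and 4 C57BL/6 columns are written with up to 14 decimals, and the other 10 C57BL/6 columns with up to 9. The 3 arrays between the strains all have the longer format. The sources do not explain this difference in number format, which was treated as a technical batch. The 3′ signal of the Actb control exceeded its 5′ signal by 0.87 ± 1.31 in Balb/c and by 3.87 ± 1.25 in C57BL/6 (log2, SD, n = 5 and 14), and for Gapdh by 3.14 ± 1.42 in Balb/c and by 3.27 ± 0.62 in C57BL/6. The 3 arrays between the strains stood out for Actb. C57BL/6 200 replicate 1 and 400 replicate 1 had the lowest C57BL/6 values, 1.17 and 1.65, with the next at 3.27. The Balb/c array of 200 dendrites had the highest Balb/c value, 2.27. For Gapdh these arrays had 5.00, 3.15 and 3.37, in the same order. Of 10 marker genes of pyramidal neurons, 5 were lower in Balb/c, among them Stmn2 by -4.69 and Neurod6 by -2.23, and 2 were higher, Camk2a by 0.69 and Nrn1 by 0.76, and their mean signal was 7.83 ± 0.61 in Balb/c and 8.81 ± 0.28 in C57BL/6 (SD). Nrgn, the dendritic calmodulin-binding protein neurogranin, was at the 99.8th percentile, but Slc17a7, the vesicular glutamate transporter of these cells, was at the 35.3rd. Of 11 interneuron markers 3 were lower in Balb/c, Gad1 by -2.18, Sst by -1.31 and Dlx1 by -1.14, and Pvalb was higher by 1.42. Their median lay at the 65.4th percentile, and their mean signal ranged from 7.61 to 8.17 in Balb/c and from 8.03 to 9.11 in C57BL/6. Of 9 astrocyte markers 2 were lower, Gja1 by -1.60 and Aldoc by -1.48, and 0 were higher, with the median at the 46.1st percentile and a mean signal of 6.27 to 7.87 in Balb/c and of 6.50 to 7.68 in C57BL/6. Of 10 microglial markers 3 were higher, Itgam by 1.52, Csf1r by 1.38 and Tmem119 by 0.998, and 0 were lower, with the median at the 37.96th percentile and a mean signal of 7.33 to 7.63 in Balb/c and of 6.54 to 7.52 in C57BL/6. Among 10 oligodendrocyte markers 3 were higher and among 8 vascular markers 2, with 0 lower in either list. These marker counts, at an adjusted p under 0.05 in limma, stand beside 21.1% higher and 11.4% lower among all genes. Several are near those shares, so a count by itself is no result about a cell type. The part of these properties in the strain differences was not tested, apart from the values within the number format below.

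In limma, 8 of the 37 receptor genes were higher in Balb/c and 3 were lower at an adjusted p of 0.05 over all genes, and 26 did not pass. This is 21.6% higher and 8.11% lower, close to the background of 21.1% higher and 11.4% lower among all 18193 genes, so that the counts are no result about the receptors as a group. After quantile normalization 6 receptors were higher and 3 lower, and all genes divided into 2894 higher and 2475 lower, in place of 3837 and 2073. The median gene itself was 0.22 higher in Balb/c, and the median receptor gene 0.38, or 0.17 above it, with 21 of 37 on the upper side. Without Balb/c 100 replicate 1 the median receptor gene was 0.014 above the median gene. The median of the olfactory and vomeronasal genes also lay higher in Balb/c. It ran from 6.64 to 6.82 over the Balb/c arrays and from 5.73 to 6.65 over the C57BL/6 arrays. Of the receptors called higher in Balb/c, only Htr7 was above background in any array. The part of this background shift in the differences of single receptors was not tested. None of the 37 separated the strains without overlap, which 0.797% of all genes did with Balb/c higher and 0.418% with Balb/c lower. By family, 5 metabotropic serotonin receptors, 1 dopamine receptor, 1 muscarinic receptor and 1 nicotinic subunit were higher, and 1 metabotropic serotonin receptor, 1 muscarinic receptor and 1 nicotinic subunit were lower. None of the 10 neuronal nicotinic subunits, the 2 serotonin-gated channel subunits or the 2 alpha adrenergic receptors passed.

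The largest difference was that of Htr7. Its signal was 9.78 and 10.58 in the Balb/c pools of 100 dendrites, 8.93 in that of 200 and 10.55 and 10.35 in those of 400. In C57BL/6 it ran from 7.71 over a median of 8.38 to 9.73. The 4 Balb/c arrays other than that of 200 dendrites lay above all C57BL/6 arrays, and the C57BL/6 array that reached 9.73 was 200 replicate 1. Htr7 was higher by 1.59 ± 0.28 (standard error, adjusted p = 0.000472), and it lay at the 96.0th percentile in Balb/c, against the 83.5th in C57BL/6. Both of its probe sets were higher, by 1.81 and 1.38. Htr4, the other Gs-coupled serotonin receptor that was higher, had 6.27 ± 0.33 in Balb/c and 5.75 ± 0.26 in C57BL/6 (SD, n = 5 and 14), a difference of 0.51 at the edge of the threshold (adjusted p = 0.0491), and its call was lost under 26 of 32 other settings, with most single arrays left out among them.

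Of the Gi/o-coupled serotonin receptors, Htr1a, the main inhibitory serotonin receptor of hippocampal pyramidal cells, had 8.82, 8.42, 7.44, 8.05 and 7.69 in the Balb/c pools of 100, 100, 200, 400 and 400 dendrites. The C57BL/6 arrays ran from 6.49 over a median of 7.10 to 7.67. Again 4 of 5 Balb/c arrays lay above the C57BL/6 range and the pool of 200 within it, and Htr1a was higher by 0.97 ± 0.23 (adjusted p = 0.00377). Htr5a had 6.45, 7.85, 6.97, 9.02 and 7.01 in the same Balb/c pools, and 5.21, 6.20 and 6.86 as the lowest, median and highest C57BL/6 values. It was higher by 1.29 ± 0.31 (adjusted p = 0.00407), with the Balb/c arrays spread over more than 2 log2 units. Of its probe sets, 1422207_at passed by itself, with a difference of 1.74, and 1443276_at did not, with 0.85 (adjusted p = 0.231). Htr5b, its paralog, had 6.31, 6.47, 7.42, 6.39 and 7.33 in Balb/c, against 4.66, 5.58 and 8.20 as the lowest, median and highest in C57BL/6. Here the highest array of all was C57BL/6 400 replicate 1, all 5 Balb/c arrays lay inside the C57BL/6 range, and the difference of 1.03 ± 0.39 had an adjusted p of 0.0443, a call lost under 25 of 32 other settings.

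Drd3, the Gi/o-coupled D3 dopamine receptor, had 6.13, 7.44, 5.59, 6.58 and 6.52 in the Balb/c pools of 100, 100, 200, 400 and 400 dendrites. In C57BL/6 the lowest array had 3.98, the median was 5.22 and the highest 6.40. It was higher by 1.19 ± 0.31 (adjusted p = 0.00647), from a signal in C57BL/6 at the 9.80th percentile. Drd2, with a difference of 0.96 ± 0.43, did not pass (adjusted p = 0.0893). It had the largest SD of the receptors in C57BL/6, 0.93, and its highest 3 values of all, 8.76 in Balb/c 200 replicate 1, 8.84 in C57BL/6 200 replicate 1 and 8.35 in C57BL/6 400 replicate 1, were in the 3 arrays between the strains. Drd1 did not pass at 0.44 ± 0.22 (adjusted p = 0.125).

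The muscarinic receptors Chrm1 and Chrm3, which both couple to Gq/11, moved in opposite directions. Chrm1, the main muscarinic receptor of hippocampal pyramidal cells, had 7.25, 8.87, 6.96, 8.21 and 6.96 in the Balb/c pools of 100, 100, 200, 400 and 400 dendrites, and 6.28, 6.69 and 7.50 as the lowest, median and highest of C57BL/6. It was higher by 0.90 ± 0.27 (adjusted p = 0.0144), and only 2 Balb/c arrays exceeded the C57BL/6 range. Without Balb/c 100 replicate 2 its difference was 0.59 with an adjusted p of 0.0810, and without Balb/c 400 replicate 1 it was 0.76 with an adjusted p of 0.0609. Chrm3 had 6.10, 5.95, 5.23, 6.48 and 5.99 in Balb/c, and 5.41, 7.17 and 7.53 as the lowest, median and highest of C57BL/6. It was lower, with a difference of -1.04 ± 0.28 (adjusted p = 0.00736), with the lowest C57BL/6 value in 400 replicate 1 and the next at 6.56. Chrm4 had 5.14 in both strains.

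Htr2c, whose product activates phospholipase C and is known for RNA editing, had 7.65, 7.09, 8.41, 7.24 and 7.23 in the Balb/c pools of 100, 100, 200, 400 and 400 dendrites. The C57BL/6 arrays ran from 8.17 over a median of 8.55 to 9.13. All Balb/c arrays but that of 200 dendrites lay below every C57BL/6 array, and Htr2c was lower, with a difference of -1.10 ± 0.23 (adjusted p = 0.00153). This difference was carried by 1 of its 2 probe sets, 1435513_at, which had 7.77 in Balb/c and 9.59 in C57BL/6, with a difference of -1.82 (adjusted p = 0.00540 over all probe sets). The other, 1450477_at, had 7.28 in Balb/c and 7.66 in C57BL/6, with a difference of -0.38 (adjusted p = 0.284).

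The muscle nicotinic subunits divided as well. Chrnd had 7.93, 8.32, 9.30, 9.09 and 8.39 in the Balb/c pools of 100, 100, 200, 400 and 400 dendrites, and 6.63, 7.52 and 8.65 as the lowest, median and highest of C57BL/6, and was higher by 1.13 ± 0.32 (adjusted p = 0.0104). Its 2 highest C57BL/6 values, 8.65 and 8.50, were in 200 replicate 1 and 400 replicate 1. Chrnb1 had 5.21, 6.31, 5.77, 6.58 and 4.92 in Balb/c, and 5.77, 7.07 and 9.40 as the lowest, median and highest of C57BL/6, and was lower, with a difference of -1.31 ± 0.39 (adjusted p = 0.0151). Its 2 lowest C57BL/6 values, 5.77 and 6.06, were again in 400 replicate 1 and 200 replicate 1, and without Balb/c 400 replicate 2 its adjusted p was 0.0566. Chrna1, Chrne and Chrng did not pass, and neither did the neuronal subunits Chrna4 at 0.64 ± 0.25 (adjusted p = 0.0558), Chrna7 at -0.40 ± 0.32 (adjusted p = 0.343) and Chrnb2 at -0.01 ± 0.21 (adjusted p = 0.964). Of the 12 skeletal muscle genes, 4 were higher in Balb/c, Myog, a muscle transcription factor, by 1.62, Ckm by 1.53, Myh4 by 1.08 and Myod1 by 0.96. The 2 lower ones were Mylpf by -2.01 and Tnnt3 by -0.68. Among all genes 21.1% were higher and 11.4% lower.

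**Figure D3:**
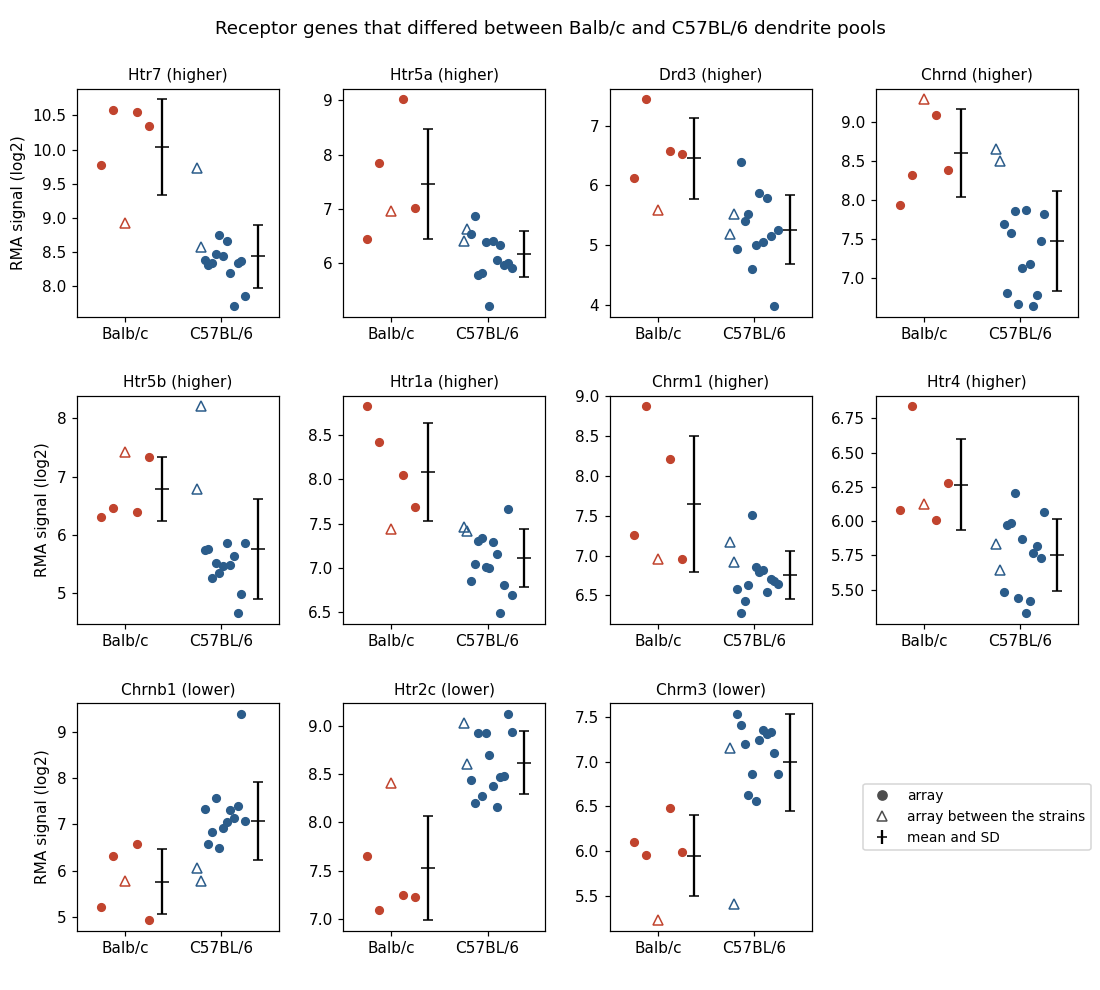
RMA signal (log2, vertical axis, a scale for each panel that does not start at 0) of the 11 receptor genes that differed between strains, with Balb/c (5 arrays) left of C57BL/6 (14 arrays). Bars give the mean and SD, and open triangles are the 3 arrays between the strains. In Htr7, Htr1a, Htr5a and Htr2c 4 of 5 Balb/c arrays lie outside the C57BL/6 range, and in Htr5b 0 of 5 do.

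The calls depended on the arrays compared. Without Balb/c 100 replicate 2, 5 receptor genes were higher, beside 15.3% of all genes, and without C57BL/6 200 replicate 1, 12 were, beside 23.9%. Without the 3 arrays between the strains, 16 receptor genes were higher and 3 were lower, among them all 11 of the main test. The background was then 28.2% of all genes higher and 2792 of 18193 lower. These arrays were picked for lying nearest the other strain in these same data. Leaving them out therefore raises the calls by construction, and the kept and added calls are no support for the main test. Drd2, Htr3a, Htr2b, Adra1b, Adra2c, Chrna4, Chrna9 and Chrng were then added. When arrays were blocked by number format, which leaves the strain contrast to the 5 Balb/c and 4 C57BL/6 arrays of 1 format, 0 receptor genes passed, beside 1.92% of all genes. An unadjusted p under 0.05 was found for 8 of 37 there, beside 21.5% of all genes. All 11 kept their direction there. They were picked by the main test, which holds these same arrays, so neither this nor the estimates below are support for it. Htr7 then had a difference of 1.28 (adjusted p = 0.0554), smaller than its 1.59 over all arrays. Htr2c had one of -1.05 (adjusted p = 0.0623), close to its -1.10 over all arrays. Htr1a had 0.89, Chrm1 0.91, Chrm3 -0.92 and Htr4 0.54 there, all near their main values, and Drd3 had 0.94. The differences of Htr5a, Chrnd and Chrnb1 were smaller by more than 1.5 times, at 0.85, 0.69 and -0.67, and that of Htr5b was 0.16. Within the 9 arrays of that format alone, the same estimates gave 0 calls and 3 receptor genes at an unadjusted p under 0.05, beside 13% of all genes. Beyond these values, strain and number format cannot be told apart.

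**Figure D4:**
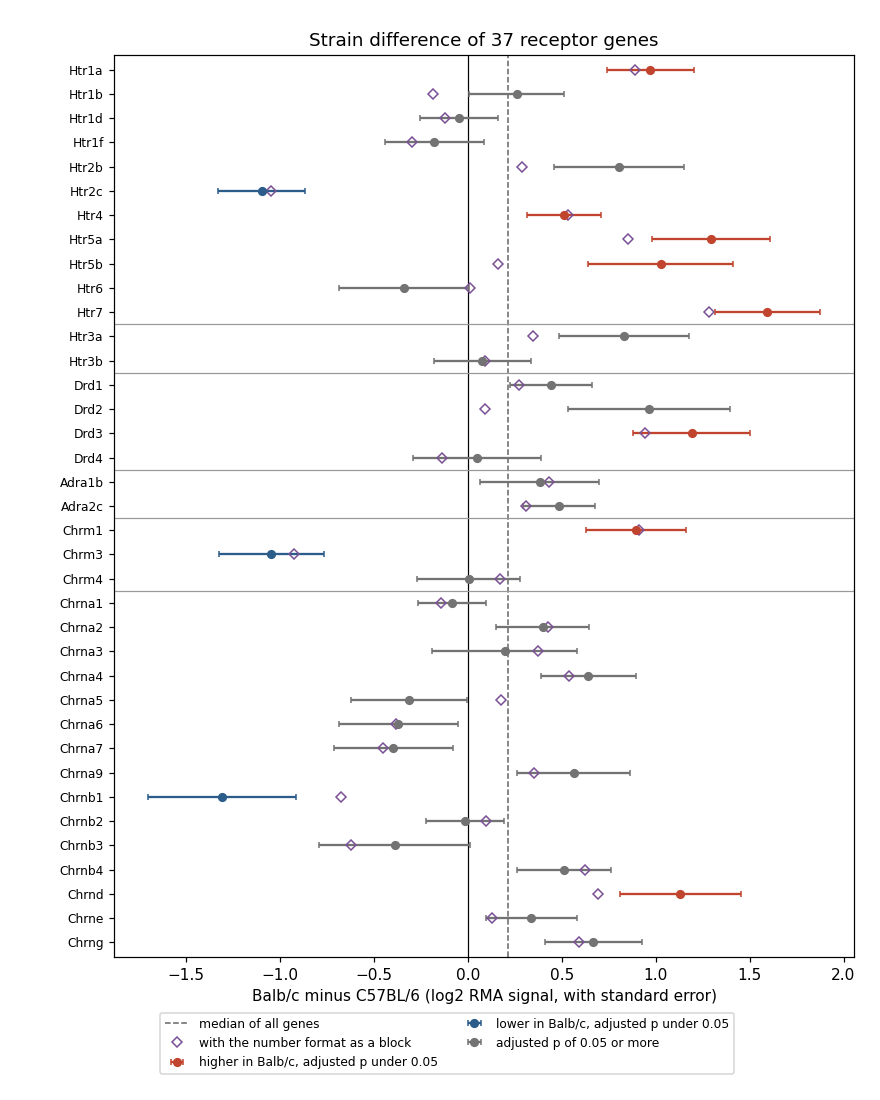
Difference between strains, Balb/c minus C57BL/6 (log2 RMA signal, horizontal axis), of the 37 receptor genes with its standard error over 19 arrays, a row each and with lines between families. Red marks genes that were higher and blue those that were lower (adjusted p below 0.05), open diamonds show it when blocked by number format, and the dashed line is the median of all genes at 0.22. For Htr1a, Htr2c, Chrm1, Chrm3 and Htr4 the diamond lies near the main value. For Htr7, Drd3, Htr5a, Chrnd and Chrnb1 it lies closer to 0, and for Htr5b and Drd2 near 0.

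Read one at a time, 19 of the 66 probe sets of the receptors were higher in Balb/c and 5 were lower, beside 20.4% higher and 12.9% lower among all 34945 probe sets. All 11 genes above had probe sets of 1 direction, which is automatic for Drd3, Htr5b, Chrm3, Chrnb1 and Chrnd, with 1 probe set each. Neither probe set of Htr4 passed by itself (adjusted p = 0.172 and 0.142 in limma), nor did 1450219_at of Htr1a (adjusted p = 0.0645). There were 0 genes with probe sets called both ways, but 10 genes that did not pass as a gene had a probe set that did. The share of all genes for which this holds is not given here, so that count is no result about the receptors. The largest difference of such a probe set was that of 1440741_at of Htr1d, a Gi/o-coupled receptor. It had 9.67 in Balb/c and 7.44 in C57BL/6, a difference of 2.24 ± 0.38 (adjusted p = 0.000324), while the other probe sets of the gene differed by 0.90 and -0.10. Likewise 1456051_at of Drd1 was higher by 1.29 (adjusted p = 0.00277) and 1425849_at of Chrnb4, a neuronal nicotinic subunit, by 1.17 (adjusted p = 0.00338). The probe sets of Chrna5 differed in opposite directions, by 0.77 and by -1.39. Blocked by number format, 2 of the 66 still passed, that of Htr1d and 1422235_at of Htr7.

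No receptor gene passed the test for a change between pools of 100, 200 and 400 dendrites. In limma 0 of 37 passed for the slope per doubling of the pool with strain as a second term, beside 0 of all genes, and 1 of 37 had an unadjusted p under 0.05, against 850 of 18193. Slopes ran from -0.37 to 0.18 per doubling with a median of -0.04. The gene with that p was Drd4, a Gi/o-coupled dopamine receptor, with a slope of -0.37 ± 0.17 (unadjusted p = 0.0400, adjusted p = 0.959). It had 8.33 and 7.45 in the Balb/c pools of 100, 6.11 in that of 200 and 6.95 and 7.90 in those of 400, so the Balb/c pools of 400 were above that of 200. Its C57BL/6 values were 7.32, 8.78, 7.36 and 7.27 at 100 dendrites, 7.39, 8.20, 7.63, 6.64 and 7.43 at 200, and 6.46, 6.89, 6.97, 7.15 and 6.75 at 400. Chrna6 and Htr2b followed, both at -0.29 per doubling (unadjusted p = 0.0940 and 0.120). For the difference in slope between the strains 0 of 37 passed, and the smallest adjusted p in limma was 0.9999. The least far from the threshold was Chrna3, whose slope was greater in Balb/c by 0.88 ± 0.42 (standard error), followed by Htr5a at 0.47 ± 0.36 and Chrnb4 at -0.36 ± 0.29.

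The genes through which these receptors act were read beside them. Of 19 G protein subunits, 3 were lower in Balb/c and 1 was higher. The lower ones were Gnai1, an alpha subunit of Gi, by -1.39, Gnaq, the alpha subunit of Gq, by -0.83, and Gng7, a gamma subunit tied to dopamine D1 and adenosine signalling in striatum, by -0.98, and the higher one was Gnb2, a beta subunit, by 1.33. Of 17 receptor kinases, arrestins and RGS proteins, which end receptor signals, 5 were lower and 0 were higher. These were Arrb1, the beta-arrestin 1 gene, by -1.23, Rgs2 by -1.33, Rgs4 by -1.95, Rgs8 by -0.74 and Rgs7bp by -1.12. Of 8 phospholipase C beta enzymes and GIRK channel subunits, 3 were higher, the channel subunits Kcnj6 by 1.14 and Kcnj9 by 0.74 and the enzyme Plcb3 by 1.02, and 0 were lower.

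Of 19 receptor partners and chaperones, 3 were higher and 2 were lower. Higher were Ppp1r1b, which encodes DARPP-32, a phosphatase inhibitor downstream of dopamine, by 1.70, Lynx1, a brake on nicotinic receptors, by 1.14, and Rapsn by 0.83. Lower were Nsg1, an endosomal protein of neurons, by -1.54, and Tmem35a, the nicotinic receptor chaperone NACHO, by -1.28. Of 19 genes for the synthesis, transport and breakdown of the transmitters, 5 were higher and 0 were lower, and these were Maoa and Maob, the monoamine oxidases, by 0.83 and 1.43, Dbh and Pnmt, which make noradrenaline and adrenaline, by 0.88 and 0.89, and Slc6a2, the noradrenaline transporter, by 0.51. The list lay low in both strains, with its median at the 29.8th percentile and 0 of its genes above background in most arrays. Of 5 histamine and trace amine receptors, Hrh3 and Hrh2 were higher by 1.34 and 1.02. As among the receptors, these counts stand beside 21.1% higher and 11.4% lower among all genes, and genes in the lower part of the range were more often higher than lower. Below the median of all gene means, 23.5% of genes were higher in Balb/c and 4.77% were lower, and above it 18.7% were higher and 18.02% were lower. The receptors had 4 higher and 2 lower of 20 genes below that median, and 4 higher and 1 lower of 17 above it.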

How the data were processed

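RNA from 19 pools of dendrites was measured on an Affymetrix mouse array. The deposited values are log2 signals, 1 for each probe set, which the authors computed by RMA (RMA 2.0 in the submitters' processing notes) from the upper decile of its probes, so that its brightest probes weigh most. The centring and scaling that the methods also name were not in the deposited values, whose array medians ran from 6.62 to 6.95. RMA makes arrays alike in distribution, which can reduce a shift shared by most genes. Array data have no depth, and the number of arrays limits the precision.

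Symbols came from the platform annotation for 34945 probe sets, and 34741 of them (99.4%) matched RefSeq (GRCm38.p6). Probe sets with several symbols or none were left out. A gene was the median of its probe sets. Differences, Balb/c minus C57BL/6, were tested with limma 3.58.1 in R 4.3.3 over 18193 genes without a filter, with strain as the only term, and adjusted by Benjamini-Hochberg; pool size was fitted as log2 of the number of dendrites, with strain. The fits were checked on simulated data. Named genes were the 6 with the highest and 3 with the lowest mean, the called ones, those with the 3 smallest p-values for pool size and interaction or the 3 largest SDs in C57BL/6, receptors known from hippocampus, and in each pathway list those with the smallest p-values; other receptors are given by percentile, and single probe sets were named after their values were seen. The genes and lists were chosen with earlier results of these data known. Tables used numpy 2.4.6 and pandas 2.3.3 and figures matplotlib 3.10.9. Alternatives covered normalization, probe set choice, a filter on dim genes, covariates, number format, the replicate number, variance and left-out arrays.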

Additional observations from a re-analysis of the deposited data

Results flagged for a closer look

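Among 25 named receptor genes, 100 groups of 4 or 5 arrays were searched for a value far from the others, and 7 were found. For genes not chosen by their values, chance gives about 1 in 20. Some of these genes were named for their spread or slopes in these same arrays, Drd2, Drd4 and Chrna3 among them. That rate therefore does not apply here, and the number found is no result. C57BL/6 400 replicate 1 was low for Chrm3, at 5.41 with the next array at 6.86, and high for Drd1, at 7.65 with the next at 7.04. C57BL/6 200 replicate 1 was high for Drd2, at 8.84 with the next at 6.22. These are arrays that lay between the strains over all genes. C57BL/6 200 replicate 4 was high for Chrna3, at 10.18 with the next at 9.18, and Balb/c 100 replicate 2 was low for Chrna3, at 6.82 with the next at 9.12. C57BL/6 100 replicate 2 was high for Drd4, at 8.78 with the next at 7.36, and C57BL/6 200 replicate 3 was low for Htr5a, at 5.21 with the next at 6.07.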

How the results depend on the processing

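The counts of 8 receptor genes higher and 3 lower in Balb/c became 0 and 0 with the number format as a block, beside 118 and 232 of all genes. With only its 9 long arrays they were 0 and 0, as among all genes. For pools of 100 dendrites they were 2 and 0, beside 1058 and 1027 of all genes, and for those of 400, 2 and 1, beside 1757 and 1336. Without the 3 arrays between the strains they were 16 and 3, beside 5134 and 2792. Each probe set read by itself, a setting chosen after seeing the data, gave 19 and 5, beside 20.4% and 12.9% of all probe sets. With the replicate number as a block the receptor counts were 2 and 1, and with it 635 and 708 of all genes. The numbers do not pair the samples, since same-numbered arrays of the strains had correlations of deviations between -0.07 and 0.02, and this loss is not read as a weaker effect. Leaving out 1 array gave 5 to 12 higher, the lowest without Balb/c 100 replicate 2, where 15.3% of all genes were higher, and the highest without C57BL/6 200 replicate 1, where 23.9% were, and 2 to 3 lower. Quantile normalization and range scaling each gave 6 and 3 and moved the median of all genes to 0.095 and 0.046. All genes then gave 2894 higher and 2475 lower, and 2590 and 2651, in place of 3837 and 2073. The methods' t-test gave 10 and 3 after Benjamini-Hochberg, beside 3760 and 1934 of all genes, and 0 receptor genes at the methods' own threshold. The median difference of the receptors relative to the median gene, 0.17, was 0.24 with a filter on dim genes, 0.046 under either use of the number format, 0.27 without the 3 arrays, and 0.014 to 0.20 leaving out 1 array, the lowest without Balb/c 100 replicate 1. Htr4 and Htr5b lost their call under 26 and 25 of 32 alternatives, and Htr7 under 2 of 33. Chrna4 reversed to -0.75 with its highest probe set. Chrnb2, whose difference of -0.01 was near 0, reversed to 0.090 with its highest probe set, 0.096 under either use of the number format, 0.0050 with the replicate number as a block, 0.023 without the 3 arrays, 0.26 in pools of 400, and -0.078 to 0.047 leaving out 1 array. Pool size and interaction gave 0 calls in all settings run. The 1 receptor above background in most arrays became 6 with the 90th percentile as background, 4 with the highest probe set and 2 in Balb/c alone, and the median percentile became 55.3 with the highest probe set, while leaving out 1 array gave 1 throughout and 47.6 to 50.5. The shares of all genes above background under these settings are not given here. The causes of these changes were not tested. Precision is set by the 5 Balb/c arrays, among which the median SD of the receptors was 0.54.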

Other observations

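The spread of the receptor genes between pools was like that of other genes. Their median SD was 0.54 in Balb/c, where that of all genes was 0.62, and 0.49 in C57BL/6, where that of all genes was 0.55. The SD was larger in Balb/c for 19 of the 37, beside 58.7% of all genes.

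Taar1, the trace amine receptor 1 gene, had the highest mean signal of the related amine receptors, 10.30 in Balb/c and 9.03 in C57BL/6. The Balb/c mean rests in part on its highest array, at 14.93. The lowest Balb/c array lay inside the C57BL/6 range of 7.83 to 11.62. Taar1 lay above background in 7 of 19 arrays. Its strain difference of 1.27 ± 0.71 (standard error) did not pass (adjusted p = 0.171 in limma). Ddc, the enzyme that makes both dopamine and serotonin from their precursors, had 8.83 in Balb/c and 8.56 in C57BL/6, at the 86.1st percentile. Th, Tph2 and Chat mark neurons that make dopamine or noradrenaline, serotonin, and acetylcholine, in that order. They lay at the 46.0th, 2.54th and 29.8th percentiles.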
